A study of Bos taurus with 138 samples.

Results

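Germline RNA-binding proteins hold, repress and release the stored mRNA of the oocyte. The transcripts of 9 RNA-binding protein genes, DAZL, DDX4, PUM2, YBX1, YBX2, YBX3, IGF2BP1, IGF2BP2 and IGF2BP3, were followed from the bovine oocyte to the blastocyst. They were chosen by name from the 16706 gene symbols of the count table, and all 9 passed the filter on low counts. Not all were mainly oocyte transcripts by level: in transcriptomes IGF2BP1 was all but missing before the 8-cell stage, and YBX3 was highest at it. The samples were germinal vesicle (GV) oocytes, oocytes matured in vitro to metaphase II (MII), and embryos fertilized and cultured in vitro to the 2-cell, 8-cell, morula and blastocyst stages. Oocytes came from follicles of slaughterhouse ovaries, the cumulus cells and zona were removed, and each library came from a pool of oocytes or embryos. Lysates made with cycloheximide, which holds ribosomes on mRNA, were separated on 2 sucrose gradients per stage (A and B) into 10 fractions, with free RNA in F1-F2, monosomes in F3-F5 and polysomes in F8-F10. Whole pools from the same batches gave 3 transcriptomes per stage (A, B and C).

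A growing oocyte makes mRNA in advance, then stops transcription, and most of its messages wait in protein-bound particles until maturation or cleavage. In cattle the embryo's own genome becomes broadly active around the 8-cell stage (embryonic genome activation, EGA), when much of the maternal RNA is lost. DAZL binds U-rich motifs and favours translation of germ cell mRNAs, DDX4 (the Vasa homologue) is a DEAD-box helicase of germ granules, and PUM2 is a Pumilio repressor. YBX1, YBX2 and YBX3 are Y-box proteins that coat mRNA through a cold-shock domain, YBX2 being the germ cell form. IGF2BP1, IGF2BP2 and IGF2BP3 carry KH domains and are known for stabilizing their target mRNAs.

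Totals of the 138 libraries ran from 1229382 to 17342859 expected counts, the lowest in morula and blastocyst fractions, where 3 counts in the smallest library equal 2.44 CPM. CPM are counts scaled to a common library size, here with TMM factors, and for polysomes the counts of F8-F10 were summed per gradient. The labels' stages were checked against marker sums: 8 oocyte genes summed to between 18012 and 20863 CPM in GV transcriptomes and to between 37.9 and 130 CPM in blastocysts. The 5 trophectoderm genes summed to between 68.8 and 305 CPM in morula and between 5047 and 5859 CPM in blastocyst transcriptomes. Most of the blastocyst sum was KRT8 (mean 1757 CPM) and KRT18 (3169). CDX2, on the same list, averaged 7.05 CPM in blastocyst and 6.94 in 2-cell transcriptomes, so it did not mark the stage. NANOG and POU5F1, of the inner cell mass list, summed to between 377 and 479 CPM in morula and between 145 and 185 CPM in blastocyst transcriptomes. Cumulus markers (8 of 8 detected in MII and in GV) summed to between 294 and 390 CPM in MII and between 32.0 and 43.2 CPM in GV transcriptomes. They summed to between 104 and 115 CPM in 2-cell and between 113 and 255 CPM in 8-cell transcriptomes. HAS2 alone averaged 33.1 CPM in GV, 180 CPM in MII and 104 CPM in 2-cell transcriptomes. TNFAIP6 averaged 0.0506, 124 and 0.154 CPM at these stages, and PTX3 1.11, 9.42 and 2.22 CPM. The part of cumulus RNA in the MII values was not tested. The 8-cell libraries stood apart in the sum of 10 mesenchymal genes, at 15510 CPM in transcriptome A, 2903 in B, 2435 in C, and 1375 and 1753 in the polysome pools. Transcriptomes of GV and 2-cell stages held between 11.9 and 20.7 CPM of them, MII between 84.0 and 153, and morula and blastocyst between 356 and 451. Among the 10 genes, the collagens COL1A1 and COL3A1 reached at most 30.2 and 138 CPM in 8-cell transcriptomes, so other genes made up most of the sum. TAGLN, also on the list, is named in the paper as highly expressed in 8-cell embryos, where its protein was abundant. The part of the mesenchymal transcripts in the changes to and from the 8-cell stage was not tested.

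**Figure D1:**
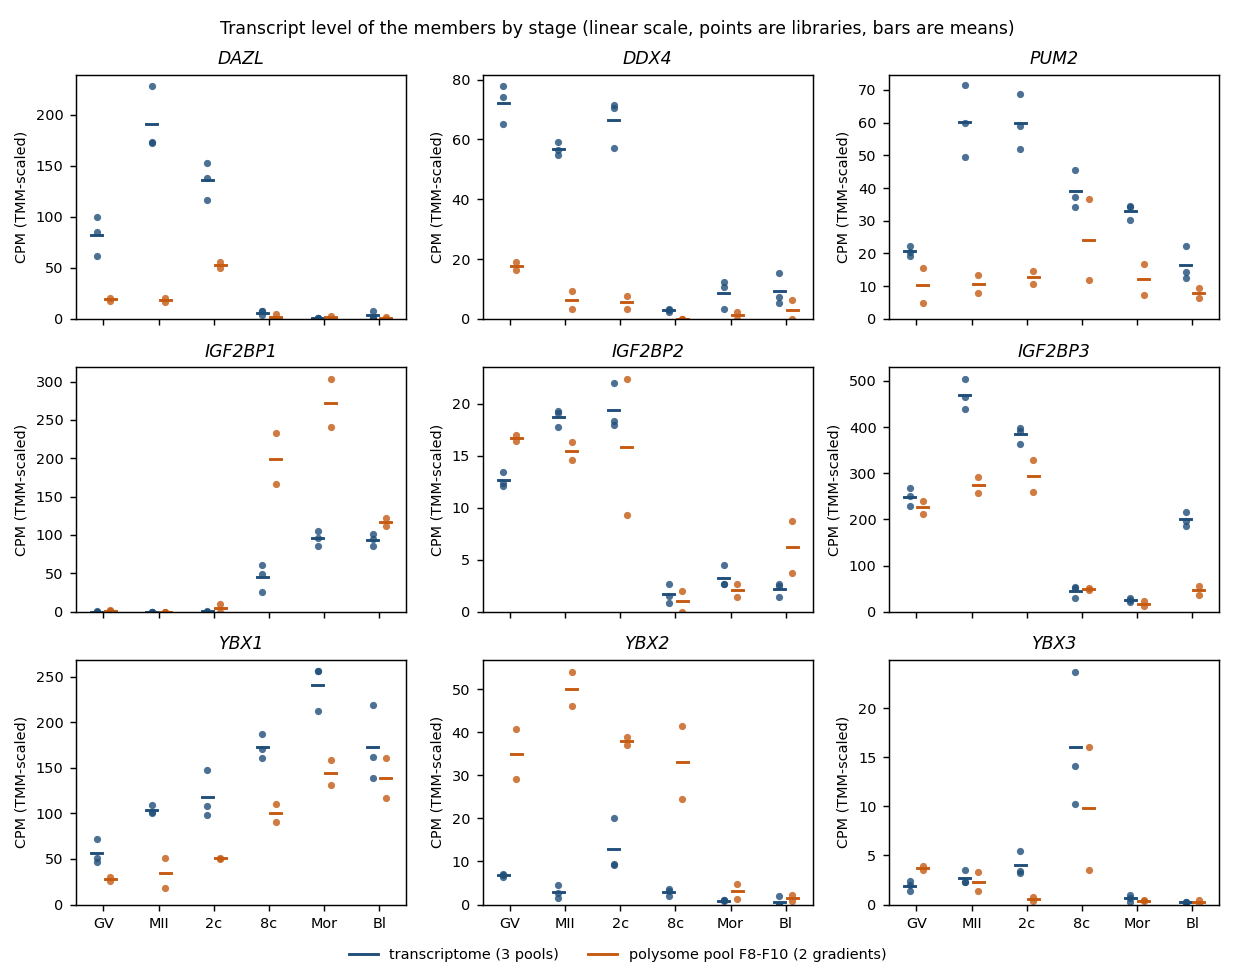
CPM of each member at 6 stages (GV, MII, 2c for 2-cell, 8c for 8-cell, Mor for morula, Bl for blastocyst), with 1 point per library and bars at the means, transcriptomes in blue (3 per stage) and polysome pools in orange (2 per stage). DAZL, DDX4, IGF2BP2 and IGF2BP3 drop between the 2-cell and 8-cell stages, IGF2BP1 appears there, and IGF2BP3 is between 186 and 217 CPM in blastocyst transcriptomes against 37.1 and 54.7 in the pools.

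Most members changed in the transcriptome at 1 step, from the 2-cell to the 8-cell stage. There 7 of the 9 members passed the test (edgeR quasi-likelihood, adjusted p under 0.05 and over 2-fold), 5 lower and 2 higher, where 50.1% of the 14612 genes tested passed it (23.5% lower and 26.6% higher). DAZL, DDX4, IGF2BP2, IGF2BP3 and YBX2 fell, and IGF2BP1 and YBX3 rose. The median log2 change was -2.16 over the members and 0.03 over all genes. Of the other steps, GV to MII had 1 member called (PUM2, background 17.1%), 8-cell to morula 1 (YBX3, 14.4%) and morula to blastocyst 1 (IGF2BP3, 21.6%). From MII to the 2-cell stage no member was called by edgeR's quasi-likelihood test, with 12% of genes called, and 1 member had an unadjusted p under 0.05. YBX2 rose at this step by 2.12 (log2; adjusted p = 0.056), and its libraries did not overlap. It was called under 5 of 14 other settings, among them edgeR's likelihood ratio test and DESeq2. Genes over 4-fold higher in both GV and MII than in each of 8-cell, morula and blastocyst transcriptomes (6 comparisons) were classed as maternal, and those lower in all 6 as embryonic. By this rule DAZL and DDX4 were maternal (6.79% of genes) and IGF2BP1 was embryonic (6.69%).

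DAZL transcript was present in transcriptomes before EGA and nearly gone from them after it. It stood at 85.3, 61.5 and 99.9 CPM in GV oocytes, at 173, 172 and 228 in MII oocytes and at 153, 138 and 116 in 2-cell embryos. At the 8-cell stage it was 3.77, 7.26 and 7.57 CPM, and in morulae 0.560, 0.715 and 0.754. No library after the 2-cell stage reached the lowest GV value, and blastocysts had 7.94, 1.24 and 0.800 CPM. The fall from 2-cell to 8-cell was -4.45 ± 1.14 (log2, SE; adjusted p = 0.0023). The rise from GV to MII, 1.22 ± 0.997, did not pass (adjusted p = 0.46), though the 2 stages did not overlap. It was called with only these 2 stages fitted (adjusted p = 3.4e-04). In order of level, MII, 2-cell and GV did not differ from their neighbours, and GV exceeded 8-cell (adjusted p = 0.0078). The 8-cell, blastocyst and morula levels did not differ from their neighbours either. From 8-cell to morula DAZL changed by -3.19 (log2; adjusted p = 0.073), without overlap. That change was called under 3 of 14 other settings, the likelihood ratio test, DESeq2 and the fit of these 2 stages alone.

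Polysome pools held less DAZL than the transcriptome in all 3 stages before EGA, with 20.6 and 17.8 CPM in GV, 16.9 and 20.9 in MII and 55.4 and 50.2 in 2-cell gradients A and B. The pools and transcriptomes did not overlap at these stages. The MII difference was called (-3.34 ± 1.27, adjusted p = 0.028), and it was no longer called without MII polysome pool A (adjusted p = 0.134) or B (0.108). The GV (-2.10 ± 1.19, adjusted p = 0.17) and 2-cell (-1.36 ± 1.15, 0.33) differences were called only with their stage fitted alone (5.8e-05 and 2.0e-04). Each of the 20 single fractions of GV, MII and 2-cell gradients lay below all transcriptomes of its stage, free RNA and monosomes included, so the lower level was not particular to F8-F10. The pool fell from 2-cell to 8-cell by 4.59 ± 1.40 (log2; adjusted p = 0.010, and 0.259 with only these 2 stages fitted). At 8-cell it held 0 CPM in A and 4.31 in B, and without pool A the adjusted p was 0.0540.

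DDX4 transcript was level through oocyte maturation and the first cleavage, at 74.2, 77.8 and 65.1 CPM in GV, 55, 59.3 and 56.4 in MII and 70.4, 71.5 and 57.2 in 2-cell transcriptomes. These 3 stages did not differ from one another (adjusted p 0.87 or more). At the 8-cell stage 2.31, 3.41 and 3.04 CPM remained, a change of -4.50 ± 1.13 (log2; adjusted p = 0.0020). Morulae had 3.45, 10.5 and 12.2 CPM and blastocysts 7.35, 5.39 and 15.4. Neither differed from the 8-cell stage by the test, though all these libraries lay above every 8-cell one. From 8-cell to morula the change was 1.58 (log2; adjusted p = 0.33), and it was called with only these 2 stages fitted (0.032).

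DDX4 pools lay below every transcriptome of their stage from GV to the 8-cell stage, and the difference was called at MII, 2-cell and 8-cell. At each of these 4 stages all 20 single fractions, free RNA and monosomes included, lay below every transcriptome. The lower level was thus not particular to F8-F10. The pools held 19.0 and 16.5 CPM in GV, 3.35 and 9.26 in MII and 7.70 and 3.35 in 2-cell embryos. Both 8-cell pools had 0 counts of DDX4, which against a floor of 3 counts over both pools (0.0490 CPM) was at least 59.7-fold lower than the transcriptome and at least 113-fold lower than the 2-cell pools. The GV difference was -2.03 ± 1.16 (adjusted p = 0.17, and 2.5e-05 with the stage fitted alone). The differences were called at MII (-3.17 ± 1.24, adjusted p = 0.033), 2-cell (-3.58 ± 1.27, 0.022) and 8-cell (adjusted p = 0.0013). Without pool A or B they were not called at MII (adjusted p = 0.186 and 0.0650) or at 2-cell (0.0636 and 0.147). The fall of the pool at EGA was called (adjusted p = 9.0e-04), but not with only these 2 stages fitted (0.0738). The pool's later change from 0 was also called, resting on 2.41 CPM in morula pool A, since B had 0. Without morula pool A its adjusted p was 1, and without 8-cell pool B 0.0522. The morula difference of -2.89 ± 1.25 from the transcriptome had an adjusted p of 0.057. It was called under 8 of 14 other settings, among them the likelihood ratio test (0.0336), DESeq2 (0.0174) and the fits without morula transcriptome A (0.0463) or without pool A (0.0012), the last leaving a pool of 0 counts.

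Single fractions were scaled over all 138 libraries together. DAZL had no common shape along them: in GV gradients it was highest in F10 of A (28.2 CPM) and F5 of B (46.8), and in 2-cell gradients F2-F4 and F8-F10 held between 28.9 and 54.9 CPM with less in F6 (6.61 and 21.4).

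In GV gradients DDX4 increased toward the heavy end, from 3.03 and 3.55 CPM in F3 of A and B to 25.6 and 14.3 in F9, while F1 held 21.4 in A and 0.386 in B. Spearman's rho over F3 to F10, 8 fractions of 1 lysate, was 0.833 in A and 0.786 in B. In MII it was -0.262 and -0.214, and no such order was seen. After EGA the profile was sparse: 10 and 9 of 10 fractions of 8-cell gradients A and B held 3 counts or fewer, while F6 of morula gradient A alone held 77.2 CPM.

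PUM2 was measured at every stage, on both sides of EGA. Transcriptome values were 19.4, 22.1 and 20.6 CPM in GV and 49.6, 59.8 and 71.4 in MII, an increase of 1.54 ± 0.45 (log2; adjusted p = 0.016) in which the 2 stages did not overlap. The call was lost without GV transcriptome A (adjusted p = 0.0664) or C (0.0565), without MII transcriptome C (0.0644) and without TMM factors (0.0801). The 2-cell, 8-cell and morula stages had means of 59.9 ± 8.4, 39.0 ± 5.9 and 33.0 ± 2.4 CPM (SD, n = 3), and blastocysts 14.4, 22.4 and 12.4 CPM. MII exceeded the blastocyst (adjusted p = 0.0011), while no 2 stages next to each other in order of level differed.

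The PUM2 polysome pools stayed between 4.76 and 16.8 CPM at every stage except 8-cell gradient B, at 36.6. Against the transcriptome they were lower at MII (-2.51 ± 0.54, adjusted p = 3.8e-04), 2-cell (-2.24 ± 0.53, 0.0012) and morula (-1.45 ± 0.51, 0.022; 0.192 without morula pool B). All 20 fractions of MII, 2-cell and morula gradients lay below their transcriptomes. In 8-cell gradients PUM2 was highest in F8, at 19.5 and 58.0 CPM against 0.466 and 0.10 in F3, while F10 held 0 in A and 41.8 in B. The polysome against monosome difference there, 4.40 ± 1.46, had an adjusted p of 0.069 by the quasi-likelihood test and passed by the likelihood ratio test (0.0079) and DESeq2 (8.8e-04).

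**Figure D2:**
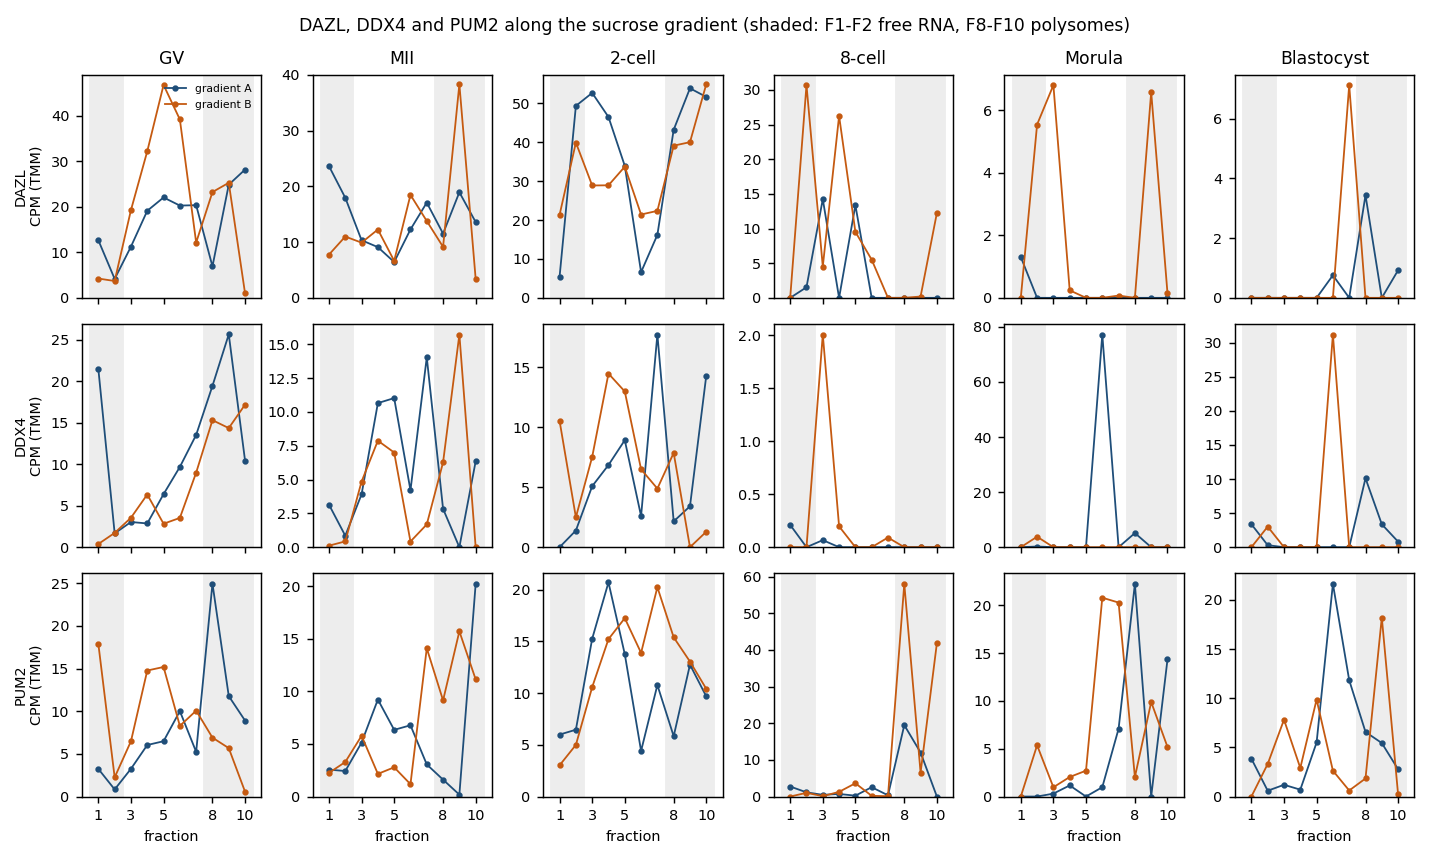
CPM of DAZL, DDX4 and PUM2 (rows, each panel with its own vertical scale) in fractions 1 to 10 of gradients A (blue) and B (orange) at 6 stages (columns), with F1-F2 and F8-F10 shaded. DDX4 increases from F3 toward F8-F10 in GV gradients and is at most 2.01 CPM at 8-cell, where PUM2 reaches 58.0 CPM in F8 of gradient B.

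Among the Y-box genes, YBX1 increased across development, while the germ cell form YBX2 had its lowest mean levels in morulae and blastocysts. YBX1 transcriptomes read 51.0, 71.8 and 46.7 CPM in GV, 102, 109 and 101 in MII, and 108, 98.2 and 148 in 2-cell embryos. They continued at 171, 187 and 161 CPM at 8-cell, 256, 256 and 212 in morulae and 162, 219 and 139 in blastocysts. No single step passed the 2-fold limit, but morulae exceeded GV oocytes by 2.10 (log2; adjusted p = 3.4e-06), with no overlap. YBX1 has many processed pseudogenes in mammals, so reads could be shared with copies, and its levels are uncertain to that extent.

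YBX1 was lower in polysome pools than in the transcriptome at GV (-0.99 ± 0.33, adjusted p = 0.020), MII (-1.57 ± 0.34, 3.9e-04), 2-cell (-1.22 ± 0.33, 0.0040) and 8-cell (-0.78 ± 0.33, 0.045). In MII, for instance, the pools held 18.6 and 51.1 CPM. The GV call was lost without transcriptome B (adjusted p = 0.0898) or pool A (0.0590) or B (0.143). The 8-cell call was lost whichever of its 5 libraries was left out (adjusted p between 0.0565 and 0.180). Morula (-0.74 ± 0.33) and blastocyst (-0.32 ± 0.32) did not pass. At 8-cell all 20 single fractions, free RNA and monosomes included, lay below every transcriptome, so the lower level there was not particular to F8-F10.

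The YBX1 message peaked in F3 or F4, light monosome fractions, in GV, MII, 8-cell and blastocyst gradients. In MII gradients it climbed from 18.5 and 50.9 CPM in F1 to 336 and 352 in F3 and dropped to 36.1 and 46.7 in F6, with 14.0 to 56.3 CPM in F8-F10. GV gradients had the same shape at a lower level (93.6 CPM in F4 of A, 109 in F3 of B), and blastocysts reached 628 and 621 in F3. In 8-cell gradients F3 was again highest (151 and 159), but F7-F10 held between 50.6 and 123 CPM. At the other stages free RNA fractions were highest. These were F2 in both 2-cell gradients (107 and 201 CPM), and F2 of A (266) and F1 of B (209) in morulae.

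Of 54 tests of members in polysome against monosome pools, the MII difference of YBX1 was the 1 call: -2.65 ± 0.53 (log2; adjusted p = 0.030), where 0.193% of 15049 genes were called. At the other stages the share of genes called was 0.419% (GV), 0% (2-cell), 5.83% (8-cell), 0.365% (morula) and 0.545% (blastocyst). The monosome pools held 190 and 195 CPM and the polysome pools 15.9 and 45.5. Leaving out gradient A or B (adjusted p = 1 and 0.153), taking F4-F5 alone as monosomes (0.157) or keeping genes of low count (0.0523) ended the call. The blastocyst difference, -2.02 ± 0.52, had an adjusted p of 0.062, and 0.0347 with the gradient as a block, in which 2 members were called. The GV difference was -1.62 ± 0.51 (adjusted p = 0.25).

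YBX2 was higher in fractionated RNA than in the transcriptome. Its transcriptome level was low: 6.45, 7.18 and 6.79 CPM in GV, 4.58, 2.74 and 1.55 in MII, 9.51, 9.11 and 20 in 2-cell, and 3.08, 1.97 and 3.57 in 8-cell embryos. The fall from 2-cell to 8-cell was -2.16 ± 0.73 (log2; adjusted p = 0.016), lost without 2-cell transcriptome C (0.0778) or 8-cell transcriptome B (0.0643). The polysome pools meanwhile held 29.2 and 40.7 CPM in GV, 54.0 and 46.2 in MII, 37.0 and 38.8 in 2-cell and 41.5 and 24.6 in 8-cell gradients. At each of these stages both pools exceeded all 3 transcriptomes.

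The YBX2 excess was called at GV (2.36 ± 0.77, adjusted p = 0.017), MII (4.08 ± 0.82, 1.7e-04) and 8-cell (3.52 ± 0.80, 6.7e-04), and not at 2-cell (1.56 ± 0.76, 0.089). The GV call was lost without GV transcriptome A (adjusted p = 0.0511) or pool B (0.0907), and with F9-F10 as the pool (0.0895). The excess was not a matter of heavy fractions: all 20 fractions of GV, MII and 8-cell gradients, from F1 to F10, lay above every transcriptome of the stage. In GV gradients F2 was highest (100 and 87.9 CPM). From 8-cell to morula the pool fell by 3.40 ± 0.92 (log2; adjusted p = 0.0062), to 1.35 and 4.86 CPM. This call was lost without morula pool A, and with only these 2 stages fitted (adjusted p = 0.359 in the latter). The transcriptome changed by -1.63 ± 0.76 at that step, with no overlap (adjusted p = 0.15; 0.0207 by DESeq2), and the difference between the 2 changes was not called (0.34).

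In transcriptomes YBX3 was highest at the 8-cell stage. All GV, MII, 2-cell, morula and blastocyst transcriptomes lay between 0.200 and 5.44 CPM, and the 8-cell ones at 23.7, 10.2 and 14.2. The increase from 2-cell was 2.00 ± 0.79 (log2; adjusted p = 0.037) and the decrease to morula -4.69 ± 0.91 (9.0e-04). The highest value was in 8-cell transcriptome A, the library with 15510 CPM of mesenchymal transcripts. Without it the increase was 1.61 with an adjusted p of 0.126, while B and C each exceeded every transcriptome of other stages. B and C also held more of those markers than any such transcriptome, so markers and YBX3 were highest in the same 3 libraries. Leaving out 2-cell transcriptome A (0.109), B (0.0545) or C (0.103) or 8-cell transcriptome C (0.0527) also ended that call, and the decrease to morula passed each time. The part of the mesenchymal transcripts in the YBX3 values was not tested.

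In polysome pools YBX3 was 0.751 and 0.400 CPM at 2-cell and 16.1 and 3.50 at 8-cell, a change of 4.07 ± 1.06 (log2; adjusted p = 0.0032), followed by -4.63 ± 1.09 (0.0022) to morula. With only the 2 stages of a step fitted, neither change was called (adjusted p = 0.138 and 0.438). The 8-cell pool A value came from F10 (47.0 CPM), since F8 and F9 held 0.114 and 0. Mesenchymal markers also summed highest in F10 of this gradient, at 2555 CPM against 48.2 in F5. Its F1 held 46.7 CPM of YBX3 with 189 CPM of those markers. At 2-cell the pools were below the transcriptome (-2.78 ± 0.96, adjusted p = 0.019), which was lost without transcriptome B (0.0503), pool A (0.0552) or pool B (0.135). In MII gradients YBX3 was 18.9 and 16.6 CPM in F2 and 0.101 and 0 in F10, but F6 was highest in gradient B (18.2 CPM, against 3.35 in A). Monosome pools were not highest at 8-cell: their means were 10.1 CPM in MII and 6.29 CPM in 8-cell gradients, with overlap. Free RNA pools had means of 11.1 CPM in MII and 16.6 CPM in 8-cell gradients.

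**Figure D3:**
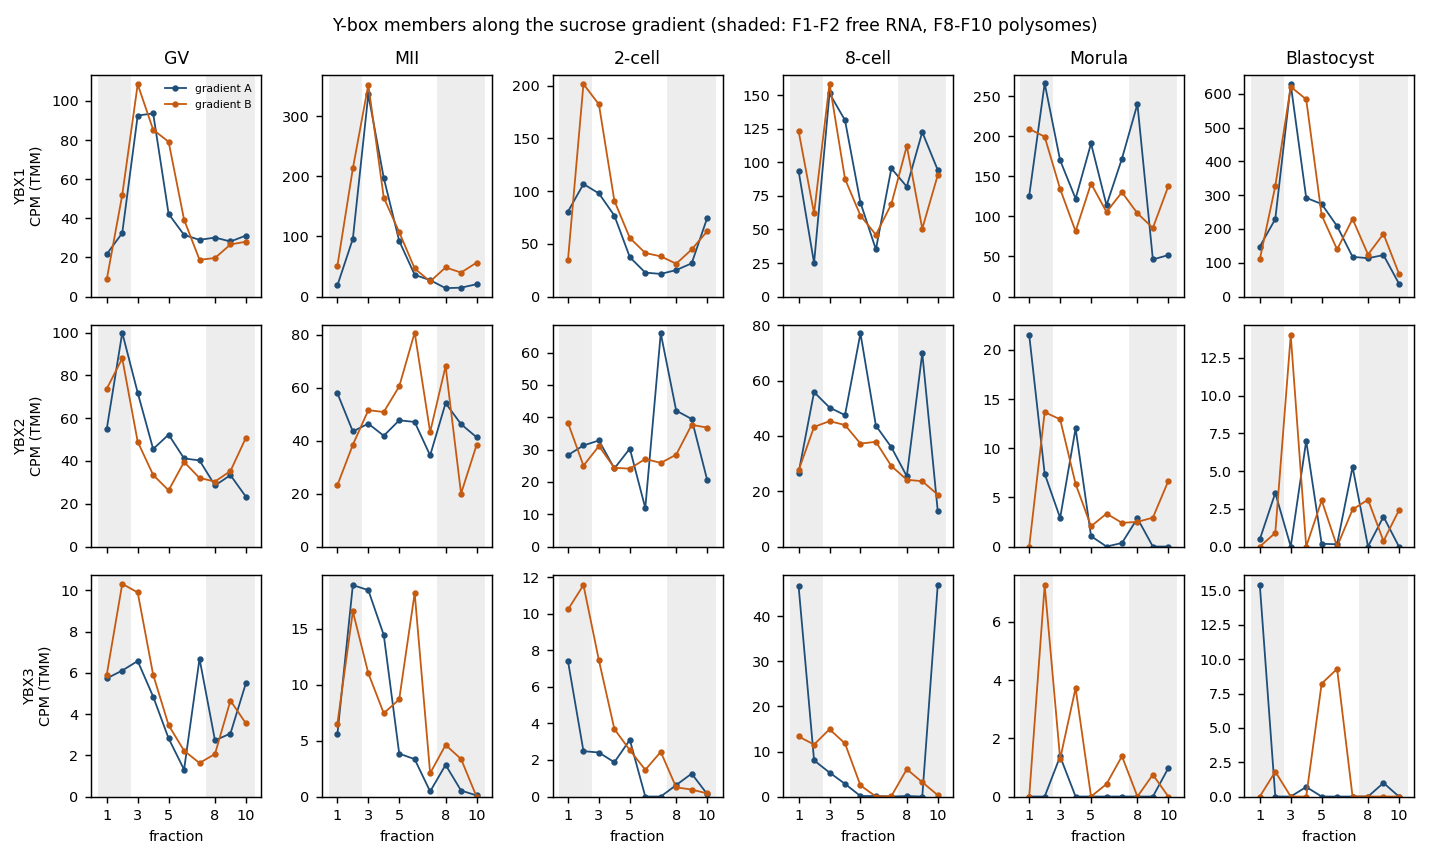
CPM of YBX1, YBX2 and YBX3 (rows, each panel with its own vertical scale) in fractions 1 to 10 of gradients A (blue) and B (orange) at 6 stages (columns), with F1-F2 and F8-F10 shaded. YBX1 has a peak at F3 in MII oocytes (336 and 352 CPM) and blastocysts (628 and 621), YBX2 is spread over all fractions up to the 8-cell stage, and YBX3 reaches 47.0 CPM in F10 of 8-cell gradient A.

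The 3 IGF2BP genes differed in timing. IGF2BP1 was all but missing before EGA: the 9 transcriptomes of GV, MII and 2-cell stages held at most 12 counts each, 0.903 CPM in the highest. At 8-cell it stood at 25.9, 60.2 and 49.7 CPM, and in morulae at 105, 96.6 and 85.4. Blastocysts had 85.0, 102 and 94.8 CPM, level with morulae. The increase from 2-cell to 8-cell was 6.86 ± 0.98 (log2; adjusted p = 3.5e-06) and was called whichever library was left out. The 8-cell, blastocyst and morula levels did not differ from their neighbours in order, though every 8-cell library lay below all blastocyst and morula ones. From 8-cell to morula the change was 1.08 (log2; adjusted p = 0.34), and it was called with only these 2 stages fitted (0.019).

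In polysomes IGF2BP1 exceeded the transcriptome at 8-cell, with pools of 166 and 232 CPM (2.14 ± 0.79, adjusted p = 0.024). That call was lost without 8-cell transcriptome A (adjusted p = 0.0847), pool B (0.0825) or by DESeq2 (0.0550). Morula pools held 303 and 241 CPM, against which the transcriptomes lay lower without a call (1.51 ± 0.78, adjusted p = 0.11), and blastocyst pools 112 and 122. Of the 20 8-cell fractions 19 lay above all transcriptomes, in F1 as in F9, and F10 of gradient A held 0.359 CPM.

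Small amounts of IGF2BP1 were also measured in gradients before EGA, in light as well as heavy fractions. GV monosome pools held 345 and 240 counts, and F6 of MII gradient B alone held 358 counts (30.1 CPM). GV polysome pools held 1.72 and 0.919 CPM (68 and 34 counts) where the transcriptomes had 4 counts in all, and the difference was called (adjusted p = 0.025; lost without GV transcriptome A, 0.0877, or B, 0.0899, or pool A, 0.118). MII polysome pools held 0 and 2 counts. The 2-cell pools held 10.4 CPM in A and 0.154 in B, so that the calls at this stage, against the transcriptome (adjusted p = 0.0018) and against MII (0.0024), rested on gradient A. Without it the first turned to -1.27 (log2; adjusted p = 0.315) and the second was 1.90 (0.453). The drop from GV to MII pools (adjusted p = 0.031) was not called whichever of the 4 pools was left out (0.0551 to 0.190). The pool's increase from 2-cell to 8-cell was 5.23 ± 1.04 (adjusted p = 2.9e-04), and it was not called with only these 2 stages fitted (0.119).

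IGF2BP2 was a low transcript of the oocyte. It measured 13.4, 12.1 and 12.4 CPM in GV, 19.1, 17.7 and 19.3 in MII and 18.3, 18 and 22 in 2-cell embryos, then 0.857, 1.52 and 2.70 at 8-cell. The fall of -3.52 ± 0.82 (log2; adjusted p = 0.0011) was matched in polysome pools by -3.97 ± 1.02 (0.0029). With only these 2 stages fitted, the fall of the pools was not called (adjusted p = 0.353). Later stages lay between 1.40 and 4.48 CPM. Polysome pools did not differ from the transcriptome at any stage (adjusted p 0.16 or more), except at 8-cell without pool B, which leaves a pool of 0 counts (adjusted p = 2.4e-05). They held 17.0 and 16.5 CPM in GV, 16.3 and 14.6 in MII and 9.28 and 22.4 in 2-cell embryos. In GV gradients the highest single values were in F10 of A (24.4 CPM) and F9 of B (18.3).

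IGF2BP3 was high in the oocyte, low at EGA and high again in the blastocyst transcriptome. The values were 251, 268 and 229 CPM in GV, 505, 439 and 465 in MII and 363, 399 and 392 in 2-cell embryos. At the 8-cell stage 30, 52.5 and 51.6 CPM were left, and 28.8, 21.7 and 24.3 in morulae. Blastocysts had 186, 217 and 196 CPM, above every 8-cell and morula library and below every GV one. The fall at EGA was -3.10 ± 0.27 (log2; adjusted p = 2.0e-09) and the rise from morula to blastocyst 3.0 ± 0.27 (3.7e-08), both called whichever library was left out. From GV to MII the change was 0.92 ± 0.25 (adjusted p = 0.011), short of 2-fold, and blastocyst and GV did not differ (-0.32, adjusted p = 0.28).

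The IGF2BP3 polysome pools dropped at EGA like the transcriptome, with 240 and 212 CPM in GV, 292 and 257 in MII, 328 and 260 in 2-cell, 45.9 and 52.0 in 8-cell and 11.5 and 23.5 in morula gradients. In blastocysts they held 54.7 and 37.1 CPM, which was -2.12 ± 0.30 (log2; adjusted p = 5.5e-06) from the transcriptome and called whichever library was left out. The pool's own steps were -2.59 ± 0.32 at EGA (adjusted p = 9.4e-07), -1.48 ± 0.31 from 8-cell to morula (8.4e-04) and 1.39 ± 0.31 to blastocyst (0.0050). The second was not called with only its 2 stages fitted (adjusted p = 0.581). The last was not called in such a fit either, nor without morula pool A (0.99, under 2-fold) or blastocyst pool A. With F9-F10 as the pool it was not called (adjusted p = 0.124). The MII difference of -0.78 ± 0.28 (adjusted p = 0.023) was lost without MII pool B and under 4 other settings (adjusted p 0.0586 to 0.250 in the latter). All 20 fractions of MII gradients, from F1 to F10, lay below every MII transcriptome, so this difference was not particular to F8-F10.

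Between morula and blastocyst, polysome and transcriptome changes of IGF2BP3 differed by -1.61 ± 0.40 (log2; adjusted p = 0.011). It was the 1 member called among the 45 tests of this kind, and 12.3% of all genes were called at this step (10.6%, 1.81%, 12.2% and 12.5% at the 4 earlier steps). The difference was not called without morula pool B (-1.01, adjusted p = 0.0653), blastocyst pool B (-1.35, 0.0736) or with F9-F10 as the pool (-1.52, 0.256). In blastocysts all 20 fractions lay below every transcriptome, between 10.7 and 103 CPM. In GV gradients IGF2BP3 stood at 107 and 59.1 CPM in F1, was lowest in F2 (50.1 and 33.6) and reached 234 and 240 in F9, with rho over F3 to F10 of 0.857 and 0.619. At 8-cell F1 was highest instead (196 and 154 CPM).

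**Figure D4:**
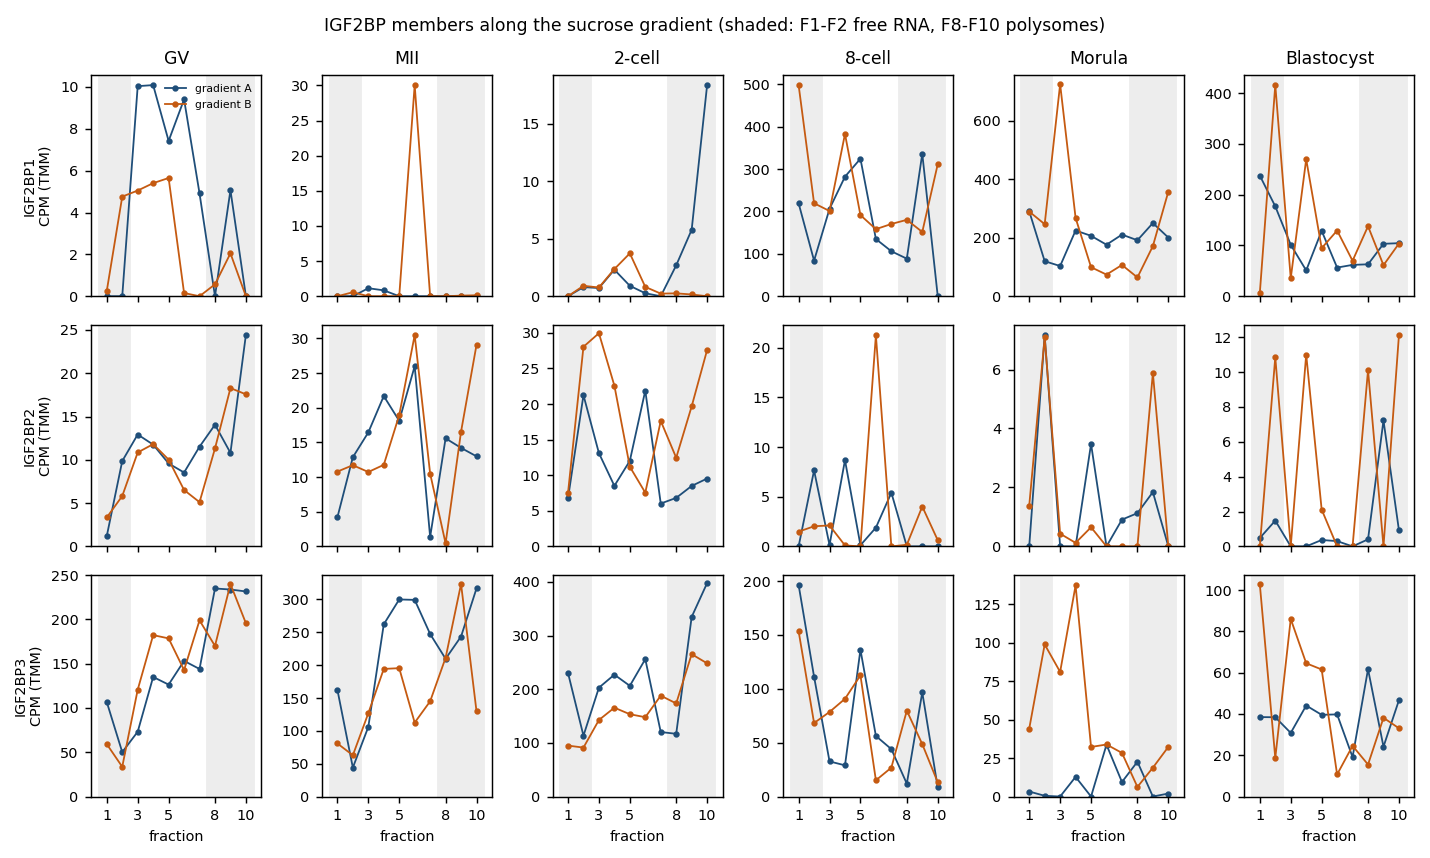
CPM of IGF2BP1, IGF2BP2 and IGF2BP3 (rows, each panel with its own vertical scale) in fractions 1 to 10 of gradients A (blue) and B (orange) at 6 stages (columns), with F1-F2 and F8-F10 shaded. IGF2BP3 is lowest in F2 of GV gradients and higher in F8-F10, and is highest in F1 at 8-cell, and IGF2BP1 lies at 84.0 CPM or more in all 8-cell fractions except F10 of gradient A.

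Polysome pools differed from the transcriptome in 20 of 54 tests of members. At GV 3 of 9 were called (39.8% of genes), 2 higher and 1 lower (all genes 22.2% and 17.7%). At MII 6 were called (57.5%), 1 higher and 5 lower (30.8% and 26.7%), and at 2-cell 5 (51%), 1 higher and 4 lower (29.1% and 21.9%). At 8-cell 4 were called (59.1%), 2 higher and 2 lower (28% and 31%). In morulae 1 was called (51.7%), lower (26.5% of genes higher and 25.2% lower), and in blastocysts 1 (40.1%), also lower (20% and 20.1%). The calls of YBX2 and IGF2BP1 were higher, those of DAZL, DDX4, YBX1, YBX3, IGF2BP3 and PUM2 lower, and IGF2BP2 had none. At GV, MII and 2-cell the members' share was so near that of all genes that a single member could change which was higher. At 8-cell, morula and blastocyst it was below that of all genes. With 9 members, the differences between these shares were not tested. In free RNA against monosome pools no member was called in 54 tests by the quasi-likelihood or likelihood ratio test and 2 by DESeq2, with 4 at an unadjusted p under 0.05. Of all genes, 1.2% (GV), 1.1% (MII), 0.153% (2-cell), 1.34% (8-cell), 0.0332% (morula) and 0.99% (blastocyst) were called there. In polysome transitions, 6 members were called from 2-cell to 8-cell (46.3% of genes) and 4 from 8-cell to morula (36.2%), and 1 each from GV to MII (5.37%), MII to 2-cell (8.51%) and morula to blastocyst (13.9%).

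**Figure D5:**
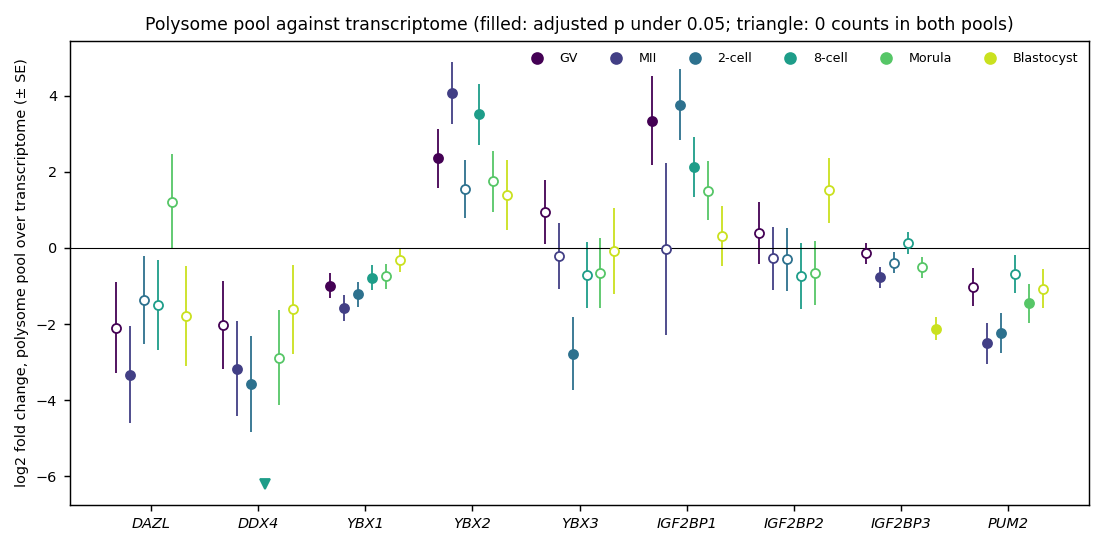
Log2 fold change of the polysome pool over the transcriptome (vertical axis, ± SE) for each member, with 1 symbol per stage, filled where the adjusted p was under 0.05, and a triangle at the axis foot where both pools had 0 counts (DDX4 at 8-cell, at least 59.7-fold lower). IGF2BP1 at GV, MII and 2-cell rests on libraries of few counts. YBX2 lies above 0 at all 6 stages and YBX1, PUM2 and DDX4 below 0 at all 6.

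A wider list of 36 other RNA-binding genes of germ cells and mRNA particles is set beside the members. Of its 35 tested genes, 9 rose and 13 fell from 2-cell to 8-cell in the transcriptome, with a median of -0.39 (log2) against 0.03 over all genes. The oocyte factors ZAR1 (-5.42 ± 0.74, from 158 to 3.70 CPM) and ZAR1L (-4.49 ± 0.73) fell most, and the helicase DHX9 (4.75 ± 0.45) and the granule protein CAPRIN1 (4.55 ± 0.37, from 11.8 to 275 CPM) rose most. All genes had 26.6% higher and 23.5% lower. At MII 8 of the 35 were higher and 16 lower in polysomes than in the transcriptome, with a median of -0.997 (log2). All genes had 30.8% higher and 26.7% lower at that stage, and a median of 0. SYNCRIP (-4.95 ± 0.45) and FXR1 (-4.27 ± 0.34) were lowest there, and DND1 (5.20 ± 0.51, 591 against 16.1 CPM) and CSDC2 (4.45 ± 1.46) highest. The list's counts at the other stages were 9 higher and 10 lower in GV, 7 and 13 in 2-cell, 7 and 11 in 8-cell, 5 and 13 in morula and 6 and 16 in blastocyst samples.

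Genes whose log2(CPM + 1) was most like a member's over the 30 libraries of transcriptomes and polysome pools, by Pearson's r, are given as a description, since the libraries share stages. For DAZL they were PEX5L (0.98), KNG1 (0.97) and KCNH5 (0.97), and for DDX4 LUZP2 (0.93), MOSPD2 (0.93) and the germ cell Tudor gene TDRD1 (0.92). YBX1 was most like RYBP (0.93), HNRNPR (0.92) and MLLT10 (0.91), and YBX2 most like SEZ6 (0.96), GCC1 (0.96) and RSPO4 (0.96). YBX3 followed PAPSS2 (0.89), NT5E (0.84) and CRABP2 (0.84). The IGF2BP genes had URGCP, TBC1D9 and TKT (0.97 each, IGF2BP1), OSBPL1A (0.94), BTK (0.92) and COL14A1 (0.92, IGF2BP2), and TAT (0.95), TLN2 (0.95) and ABCC2 (0.94, IGF2BP3). PUM2 had SASS6 (0.89), SCRN3 (0.88) and ZNF280C (0.87). Among members themselves r was 0.84 for DAZL with IGF2BP3 and -0.90 for DAZL with IGF2BP1.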

How the data were processed

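RNA was sequenced from 120 gradient fractions and 18 transcriptomes. The authors prepared libraries with Smart-seq v4 and Nextera XT and quantified reads with Salmon on the Ensembl bovine annotation. They deposited expected counts for 16706 gene symbols, unnormalized, of which 11.7% are not whole. Their methods name ARS-UCD1.2 and the submitters' processing notes UMD3.1, so no coordinates are given. Counts were rounded. Polysome (F8-F10), monosome (F3-F5) and free RNA (F1-F2) pools are sums per gradient. Tests used edgeR 4.0.16 (quasi-likelihood, TMM, filterByExpr; R 4.3.3), with 30 libraries and 14612 genes for transcriptomes and polysomes and 36 pools and 15049 genes for pools. P-values were adjusted by Benjamini-Hochberg over all genes per comparison (0.05), with a fold change above 2 for transitions and 4 for maternal or embryonic genes. DESeq2 1.42.0 was an alternative. Refits said to leave out 1 library left out 1 transcriptome or 1 polysome pool (the sum of F8-F10 of a gradient). For polysome or free RNA against monosome pools they left out all pools of 1 gradient. They kept the genes and trended dispersion of the full fit. The scripts were tested on simulated data. Members and lists were chosen with earlier results of these data known. All 9 members are named. Of the 36 related genes, the 2 with the largest called change in each direction are named in the comparisons described. The study's design text calls the samples biological duplicates and triplicates. No 2 replicate libraries were identical in 78 pairs. The letters did not pair stages or kinds of library (r between -0.345 and 0.184), but pools of a gradient share a lysate (r between -0.170 and 0.273 over 36 pairs, 14 above 0.1). Levels are not corrected for transcript length, so levels of different genes were not compared. Floors cover counting error only.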

Additional observations from a re-analysis of the deposited data

Results flagged for a closer look

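The change of IGF2BP3 from morula to blastocyst differed between polysome pools and transcriptomes, by -1.61 on the log2 scale (polysome change minus transcriptome change, edgeR quasi-likelihood interaction, adjusted p = 0.011). The transcriptome rose by 3.0 and the polysome pool by 1.39. Transcriptome means were 25.0 ± 3.6 and 200 ± 16 CPM (SD, n = 3) and pool means 17.5 ± 8.4 and 45.9 ± 12 CPM (SD, n = 2) in morulae and blastocysts. Total counts of the blastocyst transcriptomes were between 3269386 and 5256282, and those of the other transcriptomes between 8818251 and 11812567, and the part of depth in this difference was not tested.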

How the results depend on the processing

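Counts of member calls kept within 1.5 times under most settings. Those that moved were as follows. Interaction calls (1) became 3 by the likelihood ratio test and 2 by DESeq2. Polysome against monosome calls (1) became 4 by the likelihood ratio test, 7 by DESeq2, 2 with the gradient as a replicate block, 2 with each stage fitted alone, 0 without the filter and 0 with F4-F5 as monosomes. Free RNA calls (0) became 2 by DESeq2 and 2 with each stage fitted alone. With only the 2 stages of a step fitted, a setting added after seeing the data as were the stages fitted alone, transcriptome transition calls (10) became 17 and polysome transition calls (13) became 1, with 4 libraries left in the latter fits. Leaving out 1 library gave 8 to 12 transcriptome transition, 18 to 24 polysome against transcriptome, 11 to 15 polysome transition, 1 to 5 interaction, 0 to 3 polysome against monosome and 0 free RNA calls, and 2 to 3 members in the maternal or embryonic class. IGF2BP1 at 2-cell turned from 3.77 to -1.27 without 2-cell polysome pool A (range without 1 library -1.27 to 5.42), and DAZL from 8-cell to morula in polysomes, uncalled at -0.47, became 7.79 (adjusted p = 0.027) without 8-cell pool B, leaving a pool of 0 counts (range without 1 library -8.26 to 7.79). With the replicate letter as a block, 9 transcriptome and 19 polysome against transcriptome calls passed. YBX3 from 2-cell to 8-cell (adjusted p = 0.0556) and DDX4 at MII (0.0540) were lost, and no other call changed. Counts over all genes depended on the test, for example polysome against monosome in MII with 29 genes by quasi-likelihood, 136 by the likelihood ratio test and 376 by DESeq2. With 2 gradients per stage and low counts of DAZL, DDX4, YBX2, YBX3 and IGF2BP2 after EGA, small differences there were not detectable.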
